A study of Mus musculus with 36 samples.

Results

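The purified Control diet was compared with the SDS standard chow in whole kidney RNA of male C57BL/6 mice, on 5 Control arrays and 3 SDS arrays, which are 8 of the 36 arrays analysed in all, and over all 45141 probe sets. The Control mice had free access to the diet labelled control (type I), whose protein is lactic casein, bought from the maker of the macronutrient-free diets and given as the control of those 3-day diets. The SDS mice had free access to a chow labelled control (SDS), whose crude protein comes from wheat, barley, soya, maize and potato, and were the controls of the 2-week restriction to 30% less food (30%DR). All mice were 10 to 12 weeks old, had eaten the SDS chow for 7 days on arrival, and had no ischemia, genetic change or drug, and each array is the kidney of a separate animal with an ID of the TS series. Each list of gene names below was read through the brightest probe set of each gene, and every value is a log2 value after RMA (robust multi-array average) normalization, so that a difference of 1 is a 2-fold change. The diets differ in protein source and in the amounts of carbohydrate, fat and fibre, the groups served as controls for diets of different length, and an SDS array had been left out by the authors as an outlier, so diet, time on the diet and arm of the experiment cannot be told apart. Mice were housed several to a cage and the labels do not give the cage, so an effect of cage was not tested.

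The kidney is a large consumer of fatty acids, which its tubules burn, and it also makes and desaturates some of its own. In liver and fat, the enzymes of fatty acid synthesis are known to be induced by insulin and carbohydrate through SREBP1c and ChREBP and to be restrained by dietary polyunsaturated fat. The Fos, Jun, ATF and Egr families include early response transcription factors. Transcripts of some members appear within minutes of a stimulus such as a growth factor, stress or handling.

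Median log2 values were 3.62 to 3.72 on the Control arrays and 3.71 to 3.72 on the SDS arrays, and the correlation between any 2 of the 8 arrays over all probe sets was 0.989 to 0.995. The kidney label fitted the markers: Umod, the urinary protein of the thick ascending limb, had 12.8 to 13.0 in Control mice and 12.8 to 12.9 in SDS mice, and the 14 proximal tubule markers averaged 11.6 ± 0.125 in Control mice and 11.6 ± 0.0700 in SDS mice (SD, n = 5 and n = 3). No marker of any tubule segment, of podocytes, endothelium or leukocytes was called, where 0.0702% of all genes were. The 12 endothelial markers had a median difference (Control minus SDS) of -0.18, with 11 below 0. The 27 leukocyte markers had a median of 0.17, with 9 below 0. As a sign of RNA breakdown, the Gapdh control probe set at the 3' end exceeded the one at the 5' end by 0.823 ± 0.140 in Control mice and 1.27 ± 0.413 in SDS mice, which differ by -0.45 (2-sided exact permutation p = 0.107, the smaller tail doubled, where the smallest possible is 0.0357), and SDS mouse TS55 had the highest value, 1.73.

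Few transcripts passed the test, and all of them were lower on the Control diet. The authors report no significant difference in expression between their control diets, without showing the data. A probe set was called differentially expressed at a Benjamini-Hochberg adjusted p under 0.05 over all probe sets, from limma on the 27 TS arrays, with a change of at least 1.5-fold. There were 21 such probe sets, all lower in Control mice (0.0465% of those tested), against 0 higher (0%). At an unadjusted p under 0.05, 1938 probe sets were lower (4.29%) and 924 higher (2.05%). The 5 Control arrays lay below the 3 SDS arrays without overlap for each of the 21, as they did for 1316 probe sets in all (2.92%). The 21 have a median difference of -1.11, against -0.0093 over all probe sets. Of them, 15 carry a symbol and belong to 12 genes: the stress and early response genes Fosl2, Apold1, Atf3 and Phlda3, the fatty acid genes Scd1 and Elovl6, the fat cell genes Fabp4 and Adig, Prkar2b, the glycogen gene Ppp1r3c, Amy1 and Gsdmc. With no minimum on the fold, 25 passed (0.0554%), the additional ones being Prkd2, Plk2 and 2 probe sets without a symbol.

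**Figure D1:**
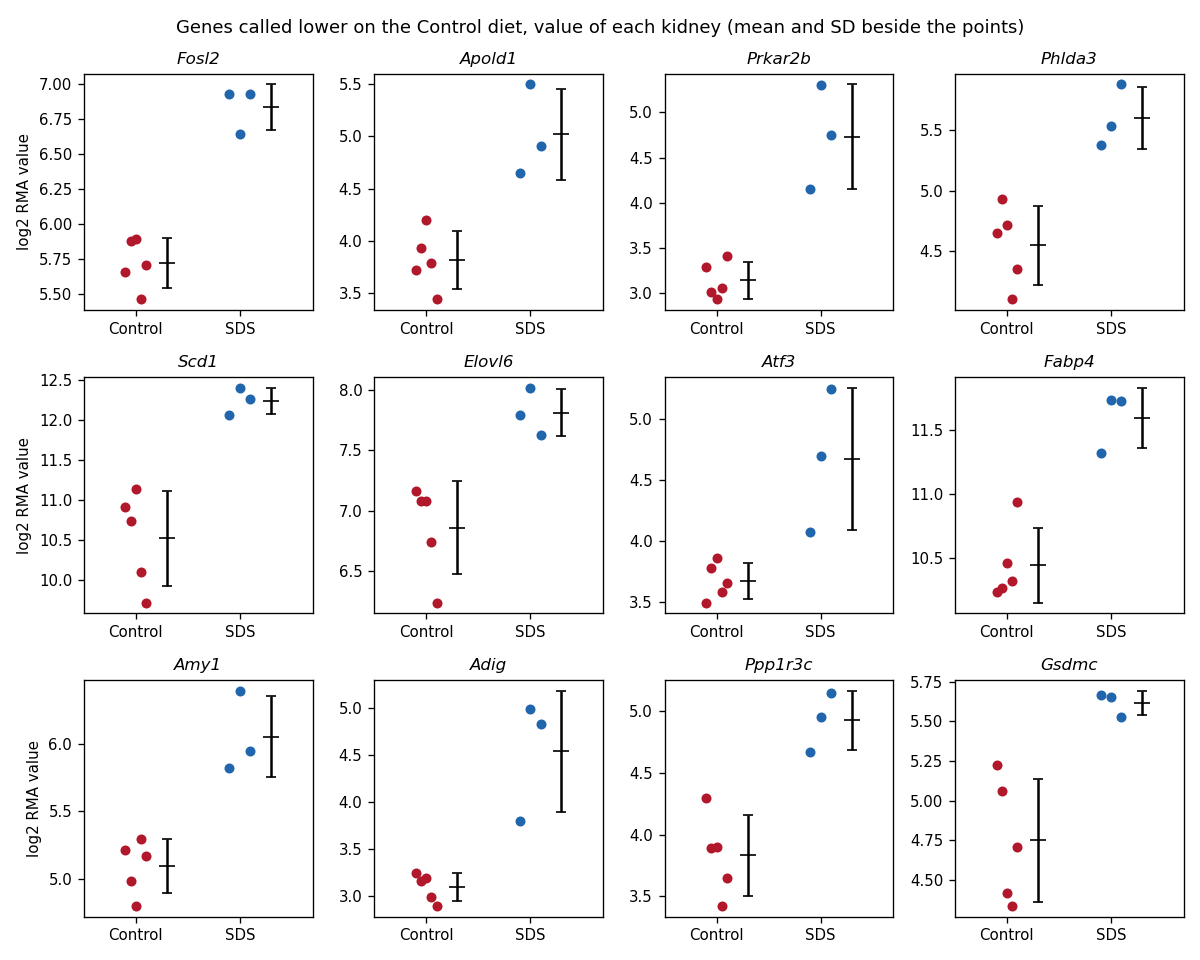
Log2 RMA values (vertical axis) of the 12 named genes called lower on the Control diet, 1 point per kidney, Control mice (n = 5, red) left of SDS mice (n = 3, blue), with the mean and SD in black, each gene by its called probe set of lowest p. In every panel all Control points lie below all SDS points, with the narrowest gap for Atf3 (highest Control mouse 3.86, lowest SDS mouse 4.07).

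Fosl2 had the lowest p of all probe sets. It encodes a Fos family subunit of the AP-1 transcription factor. Its level was 5.66, 5.88, 5.89, 5.46 and 5.71 in Control mice TS26 to TS30, against 6.92, 6.64 and 6.93 in SDS mice TS55, TS56 and TS58. The groups stood well apart, with 0.18 (Control) and 0.16 (SDS) as their SDs, and the difference was -1.11 ± 0.12 (SE), a level 2.16-fold lower (limma, adjusted p = 4.90e-05). A dimmer probe set of Fosl2 averaged 3.98 in Control mice and 4.10 in SDS mice, overlapped and was not called (adjusted p = 0.949).

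Apold1, an endothelial early response gene, had 3.72, 3.93, 4.20, 3.79 and 3.44 in Control mice, against 4.65, 5.50 and 4.91 in SDS mice. Its difference of -1.20 ± 0.18 (adjusted p = 0.00485) was 2.30-fold, and the groups did not overlap. Phlda3, a p53 target that restrains Akt, had 4.65, 4.93, 4.72, 4.10 and 4.35 in Control mice, against 5.38, 5.54 and 5.88 in SDS mice, a difference of -1.05 ± 0.16 (adjusted p = 0.00485). Control mouse TS29 was lowest and SDS mouse TS58 highest for Phlda3.

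Atf3, a stress-induced factor of the ATF/CREB family, had 3.49, 3.78, 3.86, 3.58 and 3.66 in Control mice, close to the low end of the scale, against 4.07, 4.70 and 5.24 in SDS mice. The SDS mice spread over more than a unit, with TS55 nearest to the Control mice, and the difference was -0.997 ± 0.19 (adjusted p = 0.0368). Below the minimum on the fold, Plk2, a polo-like kinase of the early response, had 5.42 to 5.92 in Control mice, against 6.09 to 6.41 in SDS mice, and had a difference of -0.58 ± 0.11 (adjusted p = 0.0446). Prkd2, a protein kinase D, had 4.86 to 4.99 in Control mice, against 5.39 to 5.61 in SDS mice, with the same difference of -0.58 (adjusted p = 0.0355).

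Fosl2, Apold1 and Atf3 are among the called stress and early response genes, and their promoters are shown here as the RefSeq annotation (GRCm38.p6) gives them, from 250 bases before to 50 after the start, 5' to 3' on the strand of the gene. Capitals mark, on either strand, CCAAT as the letters of a CCAAT box, TGACG as those of the core of a cAMP response element, and TATAAA as those of a TATA box. The windows are chr5:32136222-32136521 (plus strand), chr6:134981751-134982050 (plus strand) and chr1:191183284-191183583 (minus strand).
Fosl2: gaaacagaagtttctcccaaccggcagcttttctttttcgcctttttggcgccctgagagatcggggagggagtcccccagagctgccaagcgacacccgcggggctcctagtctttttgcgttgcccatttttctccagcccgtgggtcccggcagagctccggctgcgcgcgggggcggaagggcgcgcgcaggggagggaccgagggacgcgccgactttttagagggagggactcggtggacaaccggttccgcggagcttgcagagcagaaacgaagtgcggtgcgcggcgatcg
Apold1: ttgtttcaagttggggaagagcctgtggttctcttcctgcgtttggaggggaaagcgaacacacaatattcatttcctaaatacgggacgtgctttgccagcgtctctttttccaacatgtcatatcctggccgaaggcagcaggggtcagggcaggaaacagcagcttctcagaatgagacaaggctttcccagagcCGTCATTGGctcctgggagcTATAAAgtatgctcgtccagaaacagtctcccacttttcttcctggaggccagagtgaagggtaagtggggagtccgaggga
Atf3: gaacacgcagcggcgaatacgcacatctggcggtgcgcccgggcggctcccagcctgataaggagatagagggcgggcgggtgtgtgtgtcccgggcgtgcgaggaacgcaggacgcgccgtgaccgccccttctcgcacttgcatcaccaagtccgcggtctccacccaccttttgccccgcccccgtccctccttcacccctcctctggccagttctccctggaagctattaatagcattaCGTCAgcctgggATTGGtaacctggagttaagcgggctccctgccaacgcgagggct

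In this window Apold1 holds TATAAA at -32 and, on the minus strand, CCAAT at -48 and TGACG at -52, which share a base. Atf3 holds TGACG at -7 and CCAAT at 6 after the start, both on the minus strand, and the Fosl2 window holds none of these letters. Over 32851 promoters of this length, 37.4% hold the CCAAT box, 20.8% the TGACG core and 13.6% the TATAAA box, and of the 9 called genes with a promoter in the annotation, 4 hold the CCAAT box, 2 the TGACG core and 2 the TATAAA box. The letters TGANTCA of an AP-1 element (7.81% of all promoters) are in no window of these 9 genes. Nor are TGACGTCA of a full cAMP response element (1.79%) and TCACNCCAC of an SREBP1 element (1.24%). Prkar2b and Amy1 have 2 windows each. A gene was counted if any of its windows held the letters, while the shares are of single promoters. Scd1, Fabp4 and Gsdmc had no entry.

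Of 30 measured genes on a list of early response and stress transcription factors, only Fosl2 and Atf3 were called (background over genes 0.0702%), 24 lay below 0, and the median difference was -0.26. Fos itself spread from 4.52 to 6.82 in Control mice and from 5.24 to 7.08 in SDS mice, and the groups overlapped (difference -0.46 ± 0.49, adjusted p = 0.946). Egr1, a zinc finger factor of the same kind, had 8.44, 6.53, 8.50, 6.41 and 7.88 in Control mice, against 7.78, 9.16 and 9.88 in SDS mice. These overlapped too, and the difference of -1.39 ± 0.45 was not called (adjusted p = 0.450). Egr2 differed by -0.88 ± 0.20 (adjusted p = 0.118), and Gadd45g was the 1 listed gene with every Control mouse, 7.75 to 8.85, above every SDS mouse, 7.29 to 7.67, as for 1.92% of all genes (difference 0.73 ± 0.33, adjusted p = 0.747). Among 16 cytosolic heat shock chaperones, 15 lay below 0 and none was called in the fit of the 27 arrays. Hspa1b, an inducible Hsp70, had 8.95, 8.76, 9.41, 10.0 and 9.01 in Control mice, against 10.9, 11.1 and 10.8 in SDS mice, with no overlap (difference -1.68 ± 0.39, adjusted p = 0.132). It was called with the 8 arrays alone (adjusted p = 0.0275) and with limma's array weights, which count deviating arrays less (adjusted p = 0.0398). Its cochaperone Dnajb1 differed by -0.74 ± 0.20 (adjusted p = 0.276).

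Among transcripts of fatty acid synthesis, those of a desaturase and an elongase were called lower on the Control diet. Of 24 measured genes of fatty acid synthesis and desaturation, 2 were called lower, Scd1 and Elovl6, 0 were called higher, and 22 did not pass. A further 3 had all Control mice below all SDS mice, namely Acaca, Fasn and Thrsp, so 5 of the 24 did not overlap in that direction, where 2.74% of all genes did not. In all 20 of the 24 lay below 0, with a median of -0.15, against -0.0046 over all genes.

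Scd1, the stearoyl-CoA desaturase that makes oleic acid from stearic acid, had 10.9, 10.7, 11.1, 10.1 and 9.72 in Control mice, against 12.1, 12.4 and 12.3 in SDS mice. It was one of the brighter transcripts of the array, at percentile 95.6 to 98.5 in Control mice and 99.5 to 99.8 in SDS mice. The difference was -1.72 ± 0.30, a 3.30-fold lower level (adjusted p = 0.0265). A dimmer probe set of Scd1 had 4.14 to 4.79 in Control mice, against 5.87 to 6.40 in SDS mice, and was called as well (-1.59 ± 0.29, adjusted p = 0.0344). Elovl6, which lengthens the palmitate that Fasn makes, had 7.16, 7.08, 7.08, 6.74 and 6.24 in Control mice, against 7.79, 8.02 and 7.63 in SDS mice. Both of its brighter probe sets were called, with differences of -0.95 ± 0.18 (adjusted p = 0.0368) and -1.03 ± 0.20 (adjusted p = 0.0380), while its dimmest probe set, at the floor with 3.07 in Control mice and 3.30 in SDS mice, was not (adjusted p = 0.830). Control mice TS29 and TS30 were the lowest for both genes.

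Acaca, acetyl-CoA carboxylase and the committed step of the pathway, had 6.66, 6.44, 6.28, 5.83 and 5.38 in Control mice, against 6.92, 7.59 and 7.56 in SDS mice (difference -1.24 ± 0.32, adjusted p = 0.239). Fasn, fatty acid synthase, had 8.28, 8.07, 8.44, 7.63 and 6.86 in Control mice, against 8.68, 9.48 and 9.43 in SDS mice (difference -1.34 ± 0.39, adjusted p = 0.359). Thrsp, the lipogenic Spot 14 protein, had 6.87, 6.43, 6.92, 5.53 and 5.57 in Control mice, against 7.71, 9.32 and 8.93 in SDS mice (difference -2.39 ± 0.55, adjusted p = 0.132). A dimmer probe set of Thrsp overlapped, with a highest Control mouse at 5.82 and a lowest SDS mouse at 5.63 (-1.68 ± 0.38, adjusted p = 0.118). SDS mouse TS55 was the lowest SDS mouse for all 3, Control mice TS29 and TS30 the lowest Control mice, and none of the 3 was called. Acacb, the mitochondrial isoform, differed by -0.82 ± 0.24 (adjusted p = 0.353) with overlap. The next steps of the list showed less: Acly, which supplies acetyl-CoA, -0.29 (adjusted p = 0.806), malic enzyme Me1 -0.22 (adjusted p = 0.779), and the triglyceride enzyme Dgat1 -0.30 (adjusted p = 0.685). The desaturases of polyunsaturated fatty acids did not share a direction, Fads1 at -0.20 (adjusted p = 0.907) and Fads2 at 0.22 (adjusted p = 0.913). The remaining 13 genes, among them Mlxipl (ChREBP) at -0.01 and Gpam at -0.16, lay between -0.27 and 0.30 and overlapped. Cholesterol synthesis and uptake, which SREBP2 drives, had 0 of 20 genes called or free of overlap. Over all genes, 0.0702% were called, and 2.74% lay lower and 1.92% higher without overlap, so a list this short can hold none. The median was -0.02, with Srebf2 itself at -0.01 (adjusted p = 0.998).

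**Figure D2:**
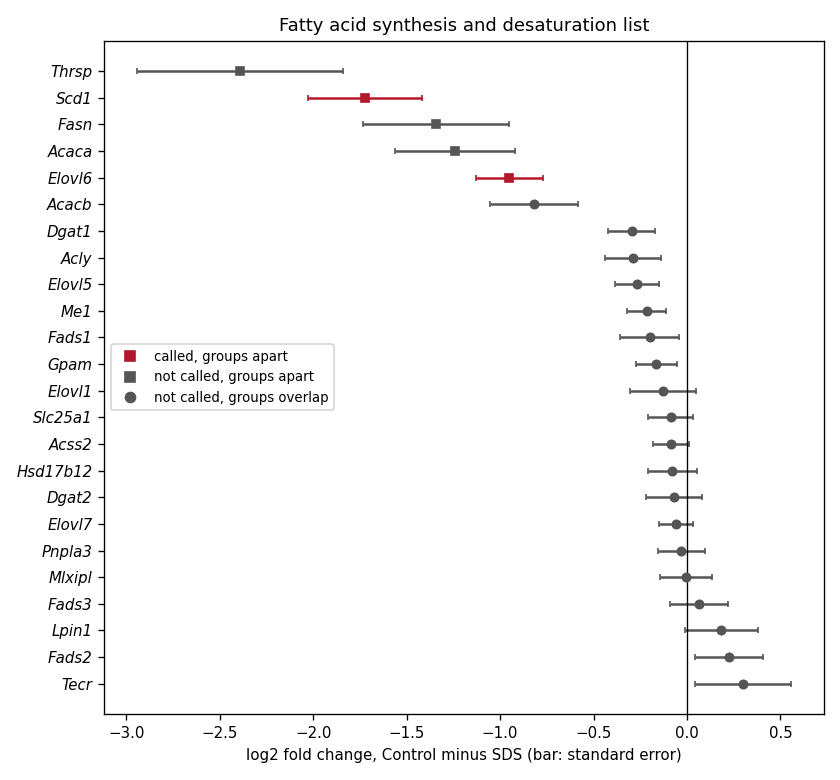
Log2 fold change, Control minus SDS (horizontal axis), with its standard error for the 24 measured genes of the fatty acid synthesis and desaturation list, each by its brightest probe set. Squares mark genes without overlap of the groups and red marks called genes: 20 of 24 points lie below 0, and 2, Scd1 and Elovl6, are called.

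Fat cell markers called lower in the Control kidneys were Fabp4 and Adig, in samples of whole kidney where fewer cells of a type and less RNA per cell cannot be told apart. Of 16 measured white adipocyte markers, 2 were called, Fabp4 and Adig (0.0702% of all genes), 5 did not overlap (2.74% of all genes), 14 lay below 0 and the median was -0.27; the mean level of the list was 6.20 to 6.64 in Control mice and 6.80 to 7.22 in SDS mice. Fabp4, the adipocyte fatty acid binding protein, also made by endothelium and macrophages, had 10.2, 10.3, 10.5, 10.3 and 10.9 in Control mice, against 11.3, 11.7 and 11.7 in SDS mice. Its difference was -1.15 ± 0.22 (adjusted p = 0.0394), and 2 further probe sets differed by -1.04 (adjusted p = 0.0568) and -1.19 (adjusted p = 0.110), without overlap. Adig, adipogenin, a small protein of fat cells, had 3.24, 3.15, 3.20, 2.99 and 2.89 in Control mice, near the floor, against 3.80, 4.99 and 4.83 in SDS mice (difference -1.44 ± 0.28, adjusted p = 0.0436).

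Adipoq, the fat cell hormone adiponectin, had 5.31, 5.32, 6.00, 4.40 and 3.69 in Control mice, against 6.97, 8.58 and 8.48 in SDS mice. The groups stood apart, but the difference of -3.07 ± 0.77 was not called in the fit of the 27 arrays (adjusted p = 0.213), while it was in that of the 8 arrays alone (adjusted p = 0.0422). Retn, resistin, had 4.39 to 6.15 in Control mice and 6.17 to 7.72 in SDS mice (difference -1.86 ± 0.49, adjusted p = 0.247), and Plin4, a lipid droplet coat protein, 4.17 to 4.75 in Control mice and 4.92 to 5.28 in SDS mice (difference -0.62 ± 0.17, adjusted p = 0.288). Lep, leptin, stayed at the floor in both, 2.37 to 2.69 in Control mice and 2.56 to 2.76 in SDS mice (adjusted p = 0.906). Of the others, carbonic anhydrase Car3 overlapped at -0.64 ± 0.15 by its brightest probe set (adjusted p = 0.156). Dimmer probe sets of Car3 differed by -1.42 (adjusted p = 0.188) and -1.33 (adjusted p = 0.295) without overlap, and by -0.44 (adjusted p = 0.905) with overlap. The lipase Lipe differed by -0.32 (adjusted p = 0.794) and the master factor Pparg by -0.36 (adjusted p = 0.861). Cd36, Lpl, Cdo1, Sncg, Slc2a4, Aqp7 and Acvr1c lay between -0.22 and 0.20, Cd36, Lpl and Cdo1 at levels above 9 in both groups.

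None of 7 brown adipocyte markers was called, where 0.0702% of all genes were. Yet the list held the largest differences among those named, and 4 of the 7 did not overlap, where 2.74% of all genes lay lower without overlap. In a fit of the 8 Control and SDS arrays alone, Cidea and Cox8b were called (adjusted p = 0.00925 and 0.00693). The list averaged 4.68 to 5.53 in Control mice and 5.95 to 6.59 in SDS mice. Cidea, a lipid droplet protein of brown fat, had 5.01, 4.03, 3.66, 3.54 and 3.53 in Control mice, against 6.31, 8.09 and 7.95 in SDS mice (difference -3.49 ± 0.73, adjusted p = 0.0803). Cox8b, a cytochrome oxidase subunit of brown fat and muscle, had 5.32, 4.34, 3.60, 4.21 and 4.33 in Control mice, against 6.98, 7.81 and 7.75 in SDS mice (difference -3.15 ± 0.68, adjusted p = 0.0990). Ucp1, the uncoupling protein that makes heat, had 6.16, 3.99, 3.72, 3.61 and 3.52 in Control mice, against 6.17, 7.34 and 6.97 in SDS mice (difference -2.63 ± 0.78, adjusted p = 0.379). Control mouse TS26 thus reached the lowest SDS mouse, TS55, very nearly, and apart from these mice the groups were far apart. Dio2 differed by -0.54 ± 0.18 without overlap (adjusted p = 0.467), and Cox7a1, Elovl3 and Ppargc1b by -0.04 to 0.09. The skeletal muscle markers, which share Cox8b's tissue, averaged 2.88 to 3.16 in Control mice and 2.92 to 3.04 in SDS mice, with none called, and the adrenal markers 3.02 to 3.30 in Control mice and 3.20 to 3.25 in SDS mice.

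**Figure D3:**
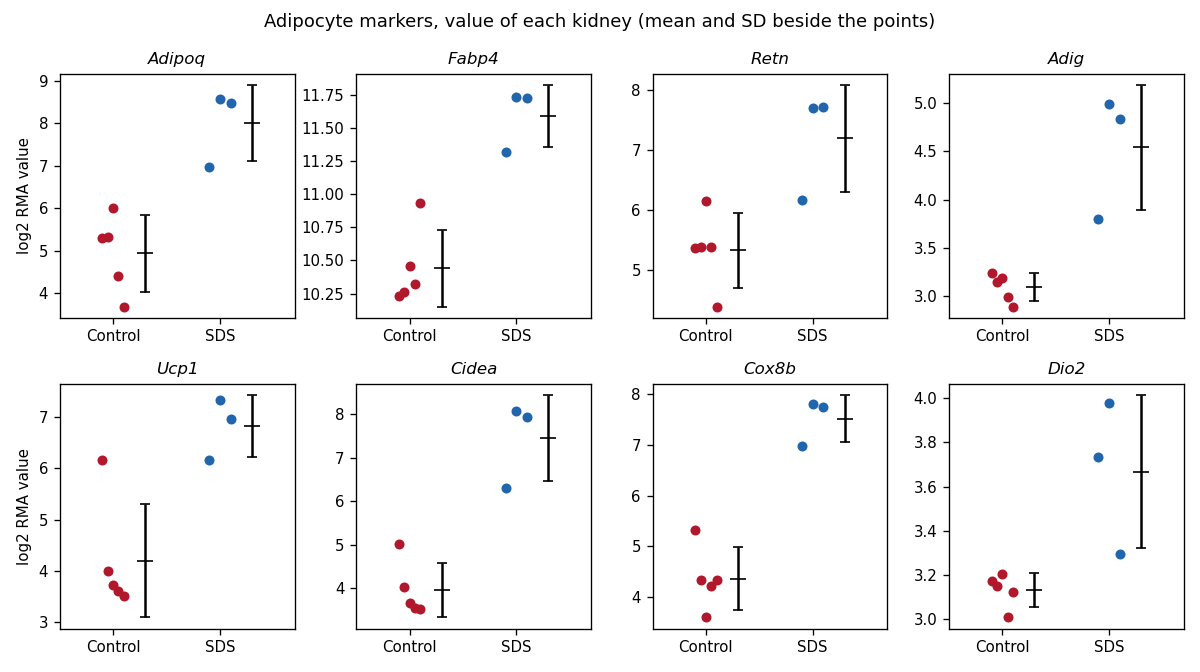
Log2 RMA values (vertical axis) of 4 white fat markers (Adipoq, Fabp4, Retn, Adig) and 4 brown fat markers (Ucp1, Cidea, Cox8b, Dio2), 1 point per kidney, Control mice (n = 5, red) left of SDS mice (n = 3, blue), with the mean and SD in black. SDS mouse TS55 is the lowest SDS mouse in 7 panels, all but Dio2, and Control mouse TS26 is the high Control point for Ucp1 at 6.16.

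The white and the brown fat list both had a lower mean in every Control mouse than in any SDS mouse, as the called genes did. Their part in the result was not tested. A refit with such a mean as a covariate cannot decide it, because the covariate splits the groups as the diet does. That of Adipoq, Lep and Retn was 3.48 to 4.94 in Control mice and 5.23 to 6.32 in SDS mice. Calls can then be lost through a wider standard error, whatever the cause. With the mean of Adipoq, Lep and Retn as a covariate, 3 probe sets were called, Fosl2 and 2 without a symbol; Fosl2 then differed by -1.09 (adjusted p = 0.0114). With the mean of Ucp1, Cidea and Cox8b as a covariate, a setting chosen after seeing the data, only Fosl2 was called, at -1.15 (adjusted p = 0.00649). Scd1 changed to -0.84 with the white fat covariate and -0.78 with the brown one (adjusted p = 0.994 and 0.988), Elovl6 to -0.55 and -0.54, and Fabp4 to -0.63 and -0.50, while Apold1 was at -1.10 and -1.34 (adjusted p = 0.336 and 0.0885) and Phlda3 at -0.66 and -0.70. The 5 SDS mice of the fasting experiment ate the same chow but served another arm, were hybridized on another date and were normalized apart. Only ranks within an array can be set side by side, and these may differ by batch, so batch and arm cannot be told apart. Adipoq lay at percentile 79.9 to 91.2 of the array in the SDS mice here and at 64.6 to 76.7 in those mice. Retn lay at 73.4 to 85.8 here and 57.6 to 70.3 there, and Fabp4 at 98.8 to 99.2 here and 96.4 to 97.8 there. Adig lay at 51.3 to 63.2 here and 10.2 to 33.9 there, and Ucp1 at 73.4 to 82.8 here and 35.0 to 45.6 there. Lep, near the floor, went the other way, with percentile 7.85 to 18.0 here and 20.1 to 26.2 there. Cidea lay at percentile 74.6 to 88.3 of the array in the SDS mice here and at 7.26 to 46.3 in those mice, and Cox8b at 80.0 to 86.4 here and 39.9 to 55.3 there. Scd1 lay at percentile 99.5 to 99.8 in the SDS mice here and at 97.6 to 99.0 in those mice, and Elovl6 at 85.1 to 87.9 here and 75.8 to 78.2 there.

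Prkar2b, a regulatory subunit of protein kinase A that is abundant in fat and brain, had 3.29, 3.01, 2.93, 3.05 and 3.41 in Control mice, near the floor, against 4.15, 5.30 and 4.75 in SDS mice. Its brighter pair of probe sets were both called, at -1.60 ± 0.24 (adjusted p = 0.00485) and -1.65 ± 0.29 (adjusted p = 0.0265), and the dimmest was not (-0.34, adjusted p = 0.399). Ppp1r3c, which targets a phosphatase to glycogen, had 4.30, 3.89, 3.90, 3.42 and 3.65 in Control mice, against 4.67, 4.95 and 5.15 in SDS mice (difference -1.09 ± 0.21, adjusted p = 0.0465). Pygl, the liver form of glycogen phosphorylase, stood beside it with 7.46 to 7.88 in Control mice, against 8.18 to 8.56 in SDS mice, short of the threshold (difference -0.71 ± 0.14, adjusted p = 0.0616, and 0.0398 with array weights).

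Amy1, an amylase, had 5.21, 4.98, 4.80, 5.29 and 5.17 in Control mice, against 5.82, 6.39 and 5.94 in SDS mice (difference -0.96 ± 0.18, adjusted p = 0.0394), and Gsdmc, a gasdermin, 5.23, 5.06, 4.42, 4.34 and 4.71 in Control mice, against 5.67, 5.66 and 5.53 in SDS mice (difference -0.87 ± 0.17, adjusted p = 0.0483). Both belong to families of near-identical genes, so which copy was measured is uncertain. The 6 called probe sets without a symbol had differences of -2.20 to -0.66, led in p by 1425809_PM_at with 4.52 to 5.10 in Control mice, against 6.15 to 6.69 in SDS mice (-1.51 ± 0.18, adjusted p = 8.51e-05). The widest difference among the 21 was that of 1436453_PM_at, with 2.76 to 3.03 in Control mice, against 3.85, 5.90 and 5.58 in SDS mice (-2.20 ± 0.40, adjusted p = 0.0344).

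Beside the called probe sets, those without overlap and with the lowest p are given as values. Among the lower ones, Slc36a2, a proton-coupled amino acid transporter, had 3.29 to 3.62 in Control mice and 4.28 to 5.74 in SDS mice (adjusted p = 0.0616), Aldh1a3, a retinaldehyde dehydrogenase, 3.55 to 4.10 in Control mice and 5.30 to 6.16 in SDS mice (adjusted p = 0.103), and Postn, the matrix protein periostin, 5.01 to 6.10 in Control mice and 6.52 to 6.57 in SDS mice (adjusted p = 0.0813). Rgs2, a brake on G protein signalling, differed by -0.55 (adjusted p = 0.0788), Mt1, a metallothionein, by -0.96 (adjusted p = 0.0890), and the aldehyde oxidase Aox1 by -0.64 (adjusted p = 0.0659). With array weights Aldh1a3, Postn, Mt1 and Aox1 were called (adjusted p = 0.0344 to 0.0428), and with the 8 arrays alone Slc36a2 and Aldh1a3 (adjusted p = 0.0409 and 0.00693). Postn was the tightest of these in SDS mice, with an SD of 0.023, against 0.49 in Control mice.

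No probe set higher on the Control diet was called in the fit of the 27 arrays, against 3 in the fit of the 8 arrays alone and 2 with array weights. The lowest adjusted p was 0.1197 (0.035 with array weights), of Gorasp2, a Golgi stacking protein, with 4.31 to 4.73 in Control mice, against 3.69 to 3.93 in SDS mice (difference 0.61 ± 0.14). Zfp444, a zinc finger protein, followed with 3.83 to 4.67 in Control mice, against 3.51 to 3.64 in SDS mice (difference 0.68 ± 0.15, adjusted p = 0.121). The next by p were Rnaseh2c (0.42), Smap1 (0.70), Ltc4s (0.69), Sh3gl2 (0.51), Zkscan1 (0.63), Ing3 (0.61), Ppil1 (0.55), Ikzf5 (0.41), Rpl3l (0.51) and Col27a1 (0.59), given as log2 differences, with adjusted p of 0.186 to 0.336. Among these are the leukotriene C4 synthase Ltc4s and the fibrillar collagen Col27a1, and none was called.

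The pathway lists other than those above held no called gene, where 0.0702% of all genes were called lower and 0% higher. The median difference was -0.09 for 27 genes of fatty acid oxidation, 0.05 for 37 of oxidative phosphorylation, 0.09 for 18 of the clock, 0.02 for 38 of amino acid catabolism, -0.17 for 23 NRF2 targets and -0.19 for 26 genes of the extracellular matrix. Some members did not overlap. Pdk4, which holds back glucose oxidation, had 6.83 to 7.56 in Control mice, against 8.08 to 8.34 in SDS mice (-0.94 ± 0.34, adjusted p = 0.571), and Nqo1, an NRF2 target, 7.50 to 7.89 in Control mice, against 8.11 to 8.39 in SDS mice (-0.56 ± 0.17, adjusted p = 0.379). Nupr1, a stress gene of the ATF4 list, differed by -0.99 ± 0.28 (adjusted p = 0.353), Igf1 by -0.49 ± 0.16 (adjusted p = 0.485) and Slc1a5, a glutamine transporter, by -0.73 ± 0.18 (adjusted p = 0.170). On the other side, Gldc, which cleaves glycine, averaged 7.88 in Control mice, against 7.43 in SDS mice, with no overlap (0.45 ± 0.17, adjusted p = 0.606). Urothelial Upk3a had 3.66 to 4.47 in Control mice, against 4.94 to 5.33 in SDS mice (-1.10 ± 0.24, adjusted p = 0.114), with 2 of 6 urothelium markers free of overlap (2.74% of all genes). The red cell gene Hba-a1 had 12.5 to 13.0 in Control mice, against 10.9, 12.5 and 12.8 in SDS mice (adjusted p = 0.427), TS55 being the low one.

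The 12 genes were then followed through the other diets of the TS animals, whose arrays share the SDS and the Control mice of this comparison, so their differences are not independent of it and are given side by side. Of the 21 probe sets, 14 were called lower on the 3-day protein-free diet than on SDS (0.27% of all probe sets were called lower), 10 on the fat-free diet (0.0332%), 15 on the CHO-free diet (1.05%) and 8 after 30%DR (0.45%). The 30%DR mice ate the SDS chow itself, in a smaller daily portion. Set against the Control mice, 8 of the 21 were called higher after 30%DR (1.62%), 1 on the protein-free (0.45%), 0 on the fat-free (0%) and 3 on the CHO-free diet (1.35%).

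Fosl2 averaged 5.72 in Control, 6.06 in protein-free, 6.12 in fat-free, 6.44 in CHO-free, 6.45 in 30%DR and 6.83 in SDS mice, with the Control group lowest and SDS highest. Scd1 averaged 10.5 in Control, 10.7 in protein-free, 11.1 in fat-free, 10.5 in CHO-free, 11.8 in 30%DR and 12.2 in SDS mice. By mean, the 2 groups on SDS chow thus lay above the purified diets, but the highest protein-free mouse, at 11.7, lay above the lowest 30%DR mouse, at 11.4. Adig had means of 3.10 to 3.30 in the 5 other groups, the 30%DR mice included, against 4.54 in SDS mice, but the highest protein-free mouse, at 4.49, lay above the lowest SDS mouse, at 3.80. Atf3 had means of 3.62 to 3.95, against 4.67 in SDS mice, with the highest fat-free mouse, at 4.43, above the lowest SDS mouse, at 4.07. Protein-free mouse TS51 had a mean of 7.11 over the brown fat list, above the 5.95 to 6.59 of the SDS mice. Amy1 had another order, 5.09 in Control, 5.81 in protein-free, 5.65 in fat-free, 6.47 in CHO-free, 6.69 in 30%DR and 6.05 in SDS mice, the Control group being the lowest. Its difference from the Control mice was 1.60 after 30%DR and 1.38 on the CHO-free diet, both called (adjusted p = 7.25e-07 and 3.55e-06), and from the SDS mice 0.64 and 0.42, neither called (adjusted p = 0.0806 and 0.236). Gsdmc likewise reached 5.65 after 30%DR and 5.48 on the CHO-free diet, against 4.75 in Control mice and 5.62 in SDS mice.

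**Figure D4:**
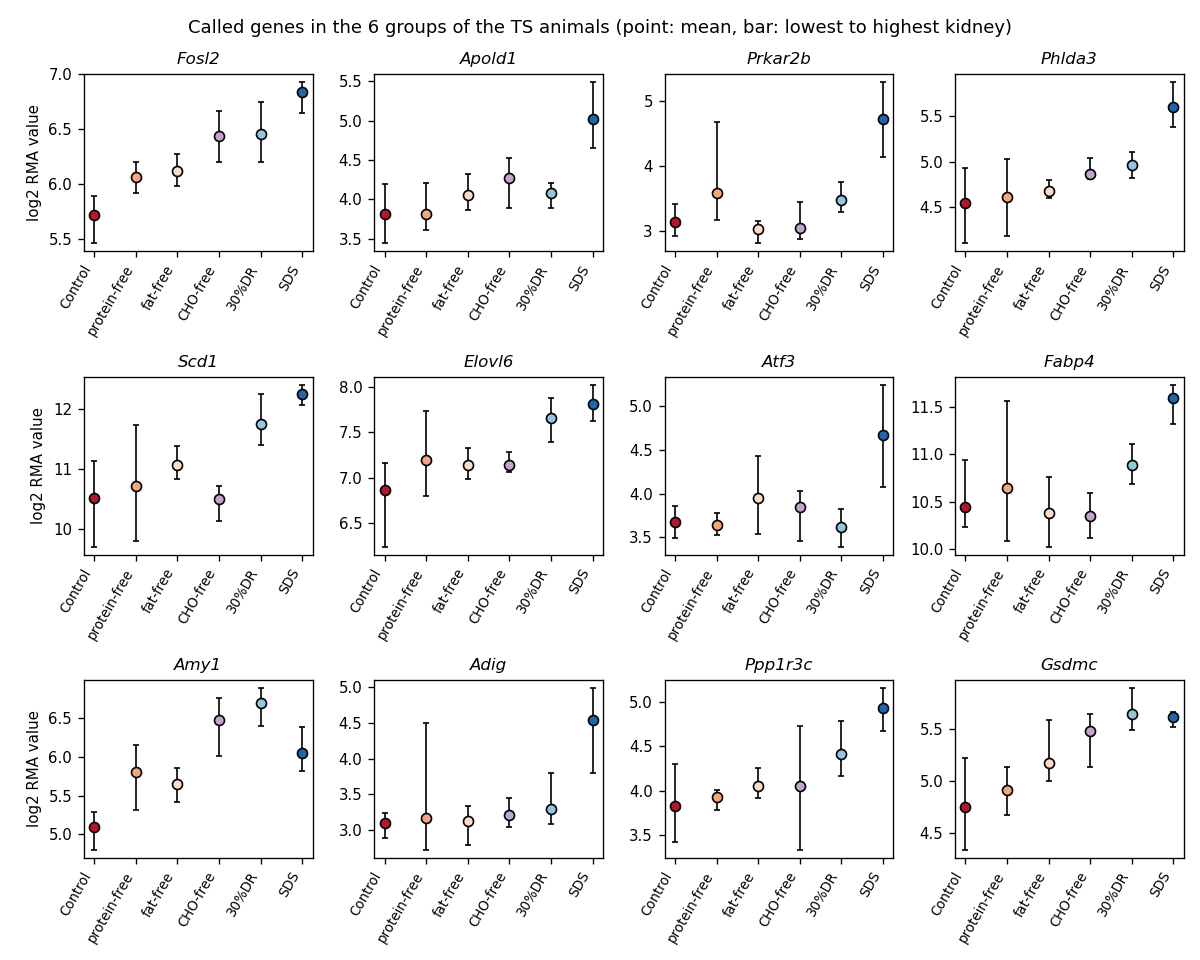
Log2 RMA values (vertical axis) of the 12 called genes in the 6 groups of the TS animals, which hold 5 Control, 5 protein-free, 4 fat-free, 5 CHO-free, 5 30%DR and 3 SDS mice, with the point at the mean and the bar from the lowest to the highest kidney. The SDS group has the highest mean in 10 panels, all but Amy1 and Gsdmc, whose highest mean is that of 30%DR mice at 6.69 and 5.65. Each gene is drawn by its called probe set of lowest p. The other called probe set of Elovl6, not drawn, averaged 7.06 in 30%DR mice, against 6.93 in SDS mice.

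The count of 21 rested on single kidneys: 2 probe sets were called without SDS mouse TS56, 4 without TS58, 6 without Control mouse TS29 and 11 without TS27 or TS30, and 25 without TS55. In every refit all 21 kept their direction and an unadjusted p under 0.05. Fosl2 was called in 17 of 17 refits, with a difference between -1.20 and -1.04, 1425809_PM_at in 16, Apold1 in 14 and Phlda3 in 12. The paired probe sets were called in 13 and 9 for Prkar2b, 10 and 7 for Scd1 and 7 and 5 for Elovl6. Atf3 and Fabp4 were called in 7, Amy1 and Ppp1r3c in 6, Adig in 5 and Gsdmc in 4.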

How the data were processed

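Total RNA of whole, snap-frozen kidneys was hybridized to Affymetrix HT MG-430 PM arrays, 1 per mouse. The deposited log2 values were made by the authors with RMA (background correction, quantile normalization, summary per probe set), run on the fasting cohort apart from the 27 TS arrays; its version is not given in the sources used. Of 45141 probe sets, 28898 carry 1 symbol (17097 genes), 551 several and 15692 none in the platform annotation; 28689 of the single-symbol ones matched RefSeq by Entrez ID, with 0 symbols changed. No further normalization was applied. Gene sequences came from RefSeq (GRCm38.p6), and the number of arrays limits the precision.

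A group-means model was fitted to the 27 TS arrays with limma 3.58.1 in R 4.3.3, default eBayes, and the contrast Control minus SDS was tested with Benjamini-Hochberg adjustment over all probe sets, called at an adjusted p under 0.05 and a fold of at least 1.5. The p-values measure the spread between mice within groups, pooled over the 6 groups of the 27 arrays. The Gapdh difference was compared by an exact permutation test. Genes were named by a rule: every called probe set, the 12 genes per direction with the lowest p among uncalled probe sets without overlap of the groups, in each of 41 lists (26 pathways, 15 cell types) the called members and up to 4 others of lowest p by the brightest probe set, and all members of the white adipocyte and fatty acid synthesis lists. Other genes named, such as Fos, Umod, Srebf2 and Hba-a1, were chosen after their values were seen. The members and lists were chosen with earlier results of these data known. Alternatives were a fit of the 8 arrays alone, a trended and robust prior, quantile normalization, median subtraction, array weights, the Gapdh difference or the white adipocyte mean as a covariate, each array left out, a filter on dim probe sets, no fold minimum, limma's treat at 1.2-fold and 1 probe set per gene. The brown adipocyte mean as a covariate, and leaving out TS26 with TS55, were chosen after seeing the data. Of the 6 genes planned for the white adipocyte mean, 3 (Adipoq, Lep, Retn) have a probe set with a symbol. The script was tested on simulated data. Figures were drawn with matplotlib 3.10.9 in Python 3.11.15.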

Additional observations from a re-analysis of the deposited data

Results flagged for a closer look

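Among the 5 Control kidneys, that of mouse TS26 lay far from the others for Ucp1, with 6.16 against 3.52 to 3.99 in the other Control mice, so that the gap made up 0.82 of the group's whole range, above the critical value of 0.71 for 5 arrays. Of 55 groups looked at in this way, this was the 1 group with such a value, where chance would give about 1 in 20. The same mouse was the highest Control mouse for Cidea at 5.01 and for Cox8b at 5.32.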

How the results depend on the processing

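Against 21 probe sets, 48 were called in a fit of the 8 arrays alone, of which 15 were among the 21, with 45 lower and 3 higher in Control mice, and 43 with array weights, with 41 lower and 2 higher, all 21 among them. A trended and robust prior left 14, the white adipocyte mean 3, the brown adipocyte mean 1 and limma's treat at 1.2-fold 2. Leaving out 1 kidney gave 2 to 25. Genes called over all 41 lists, counted at 6, numbered 11 with the 8 arrays alone, 9 with array weights, 4 with quantile normalization and with the Gapdh covariate, 3 with the trended prior, and 1 with the white and 1 with the brown covariate (1 to 7 when 1 kidney was left out). Of the fatty acid synthesis list, 1 instead of 2 was called with the 8 arrays alone, the trended prior, the Gapdh covariate and without TS26 and TS55, and 0 with either adipocyte covariate (0 to 2 when 1 kidney was left out). Of the white adipocyte list, 3 were called with the 8 arrays alone, 1 with quantile normalization, the Gapdh covariate and without TS26 and TS55, and 0 with the trended prior and either adipocyte covariate (0 to 2 when 1 kidney was left out). Adipoq turned to 0.0071 and Retn to 0.041 with the white covariate, and Ucp1 to 0.67 with the brown one, each covariate being built from these genes; otherwise the cause was not tested. Of 918 refits of 54 named probe sets, 915 kept their direction. The Gapdh difference stayed between -0.62 and -0.22 when 1 kidney was left out. No paired analysis was possible because the labels give animal IDs and no replicate number shared between the groups.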
